A study of Mus musculus with 12 samples.

Results

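The effect of the HDAC inhibitor FK228 was taken from RNA-seq of AML12, an immortalised mouse hepatocyte line, in cells that overexpressed class I histone deacetylases (HDACs) carrying the change called YF. Of the 12 RNA-seq libraries of the series, 6 made up this comparison, chosen by their titles. They were 3 libraries of cells with both FK228 and the YF mutants (HDI+YF) and 3 of cells with the YF mutants alone (YF). Another 6 libraries, 3 of cells given FK228 without YF (HDI) and 3 of control cells, gave the FK228 effect in the absence of the mutants. A GFP code, left unexplained by the labels, stands in the descriptions of the HDI and control libraries and in none of the YF or HDI+YF ones. The labels do not say which class I HDACs were mutated, how the mutants were delivered, at what dose or for how long FK228 was given, or whether replicates were grown separately. The p-values therefore rest on a spread between libraries that may be technical only. The 6 libraries held 23664436 to 25666575 estimated counts each, and 13346 of the 19037 genes in the table had enough counts to be tested.

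Class I HDACs remove acetyl groups from histone tails and act inside corepressor complexes such as Sin3, NuRD, CoREST and NCoR. FK228 (romidepsin) is a cyclic depsipeptide prodrug whose released thiol binds the zinc of the class I active site. In many cell types HDAC inhibitors arrest the cell cycle, open silent promoters and lower other genes that depend on acetylation of enhancers and on bromodomain readers.

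FK228 changed most of the transcriptome of YF cells. Of the tested genes 9426 (70.6%) were called, 4635 of them higher in HDI+YF (34.7%) and 4791 lower (35.9%), at an adjusted p of 0.05 in edgeR's quasi-likelihood test. Changes of at least 2-fold made up 19.5%, with 1267 genes higher (9.49%) and 1336 lower (10.0%). The median log2 fold change was 0.603 over the genes called higher and -0.628 over those called lower. Library scaling sets the middle of the fold changes near 0, so the near-even split rests on it. A shift in total RNA per cell would not show in these counts. Of the calls 49.2% were higher with the scaling used here (TMM), and 51.8% with another (RLE). Libraries of the groups did not overlap for 9214 called genes, 97.8% of those called, beside 75.3% of all tested genes. The calls rest on the same libraries, so a higher share among called genes is built in. The plot of gene lists by share called gives the direction of each group of genes described here, and every share is to be read against the 34.7% and 35.9% of all genes.

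**Figure D1:**
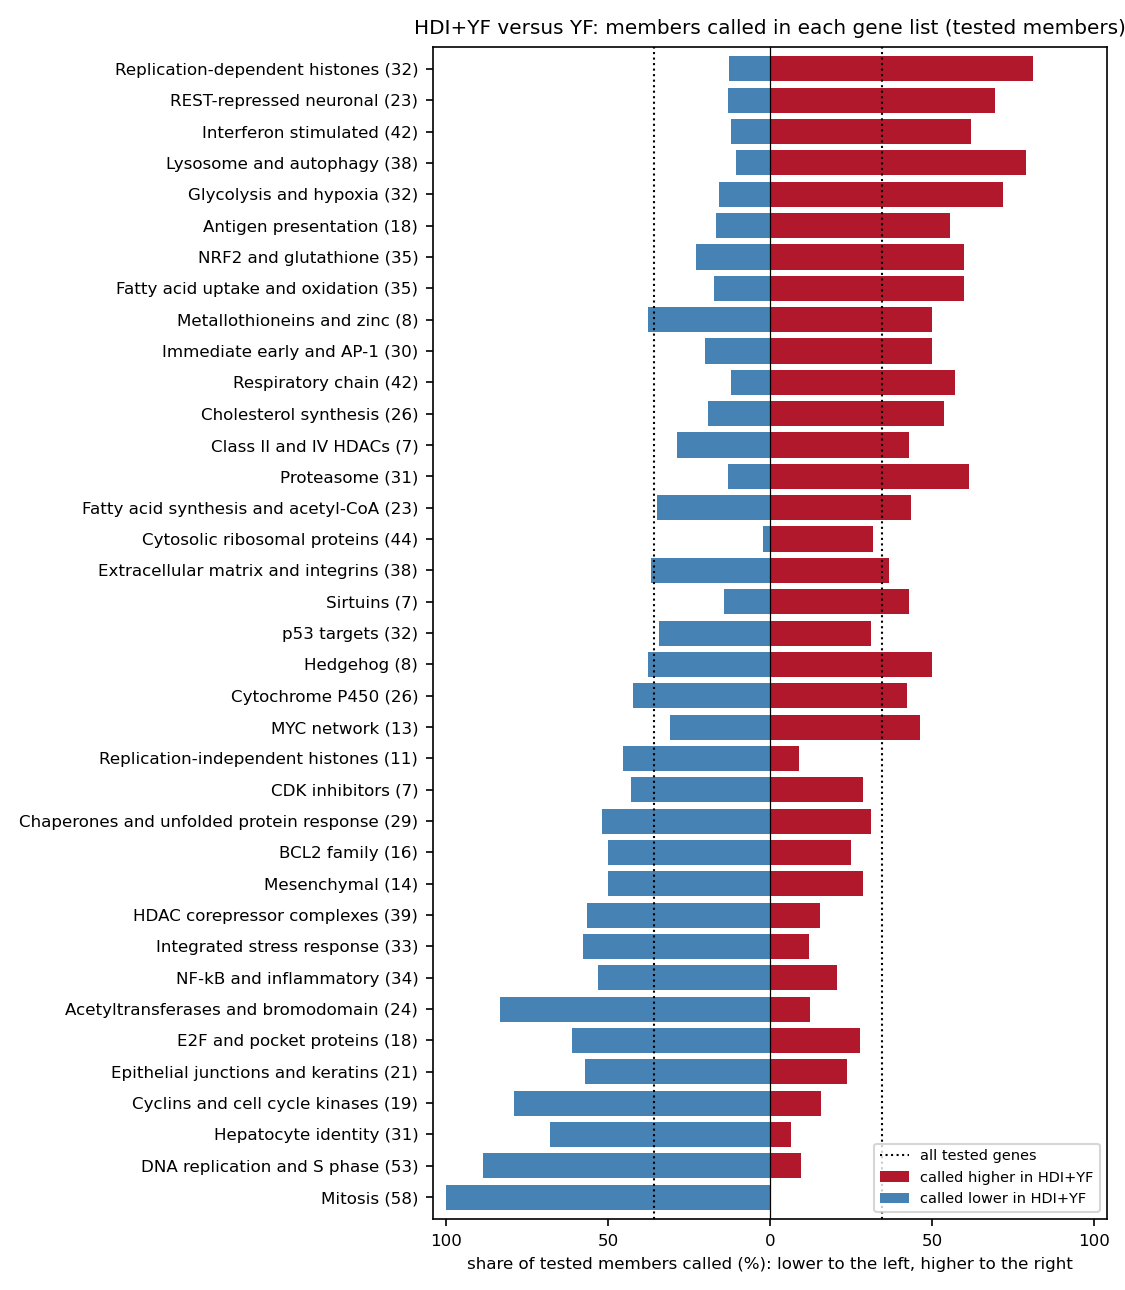
Share of the tested members of each gene list called higher (bars to the right) or lower (bars to the left) in HDI+YF versus YF, in percent, with lists ordered by their median log2 fold change and the number of tested members in brackets. Dotted lines mark the shares over all 13346 tested genes, 34.7% higher and 35.9% lower. All 58 members of the Mitosis list lie to the left, and lysosome and glycolysis genes lie mostly to the right. Replication-dependent histone genes also lie mostly to the right, but that count lends no support. Of its 32 tested members 22 averaged under 1 CPM in YF and could pass the count filter through other groups.

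Among genes with a mean of at least 5 CPM (library-scaled counts) over the 6 libraries, the 12 highest fold changes included genes of antiviral defence, neurons, metal binding and lipid uptake. Genes with a Gm number, Rik, LOC or accession-like symbol were left out of this ranking and of the ranking by difference given below. The ranking by fold change also took only called genes whose libraries did not overlap between the groups. Their separation was thus a condition of the choice. Rsad2 (chromosome 12, 26442743 to 26456452), which encodes the antiviral enzyme viperin, had 36.2, 39.97 and 38.4 CPM in HDI+YF libraries, against 1.11, 0.915 and 1.49 CPM in YF libraries. It rose by a log2 fold change of 5.02 ± 0.14 (SE of the fit, adjusted p = 3.25e-17, edgeR). Stmn2, a regulator of microtubules in neurons, had 16.5, 15.2 and 14.6 CPM in HDI+YF and 0.7901, 0.381 and 0.723 CPM in YF, a log2 fold change of 4.60 ± 0.21. Mt2 (chromosome 8, 94172618 to 94173567), which encodes a metallothionein that binds zinc and cadmium, stood at 2064, 2067 and 2271 CPM in HDI+YF, against 226, 239 and 260.5 CPM in YF. Its log2 fold change was 3.14 ± 0.14, and it was the most abundant of the 12 genes in HDI+YF by deposited TPM (6501 TPM in HDI+YF and 798 TPM in YF). The fatty acid transporter gene Cd36 reached 17.6, 15.9 and 18.5 CPM in HDI+YF, against 1.98, 1.87 and 2.21 CPM in YF (3.10 ± 0.14). The other 8 were Nrxn2 and Nos1, which encode a neurexin and the neuronal nitric oxide synthase, the casein gene Csn3, Rassf4, the gasdermin gene Gsdma, the antiviral gene Oas1a, Disp2 and Bcas1, with log2 fold changes of 3.21 to 4.56. Of all called genes, 17 averaged under 1 CPM in YF and at least 5 CPM in HDI+YF, and 9 averaged under 1 CPM in HDI+YF and at least 5 CPM in YF.

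**Figure D2:**
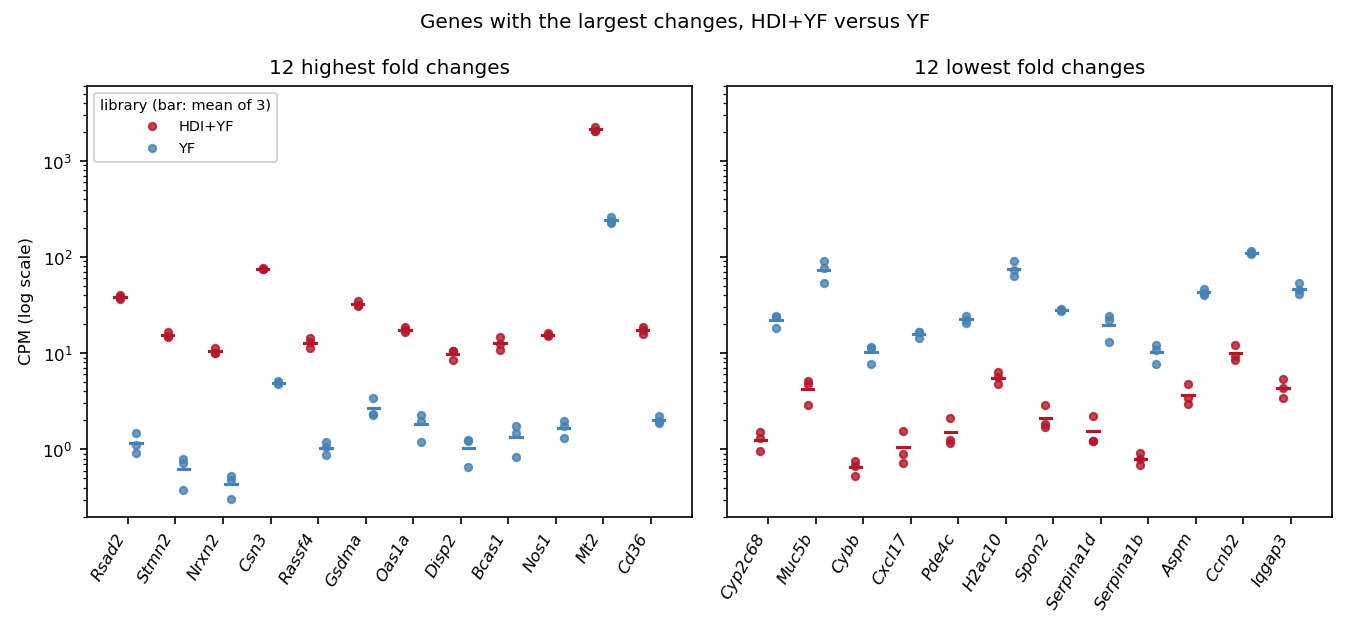
Level in CPM (log scale) of the genes with the 12 highest and 12 lowest log2 fold changes in HDI+YF versus YF, with each library as a point and the mean of 3 libraries as a bar, HDI+YF left of YF for each gene. The groups do not overlap for any of the 24 genes, which was a condition of the choice, and most of the raised genes lie near 1 CPM in YF while Mt2 lies above 200 CPM.

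The 12 lowest fold changes under the same limits belonged to secreted, immune, cell division and other genes. Cyp2c68, a cytochrome P450, had 1.501, 0.969 and 1.3 CPM in HDI+YF libraries, against 23.7, 18.1 and 24.5 CPM in YF libraries, a log2 fold change of -4.13 ± 0.23. Muc5b, a gel-forming mucin, had 5.13, 4.76 and 2.895 CPM in HDI+YF and 90.9, 53.2 and 76.5 CPM in YF (-4.11 ± 0.27), and its YF libraries spread widely. Cybb encodes the catalytic subunit of the phagocyte NADPH oxidase, and it fell to 0.7503, 0.525 and 0.671 CPM in HDI+YF, against 11.3, 7.74 and 11.7 CPM in YF (-3.97 ± 0.23). The chemokine gene Cxcl17, the phosphodiesterase gene Pde4c, the matrix gene Spon2, the scaffold gene Iqgap3, the histone gene H2ac10, the mitotic genes Aspm and Ccnb2, and Serpina1b and Serpina1d, which encode forms of alpha-1-antitrypsin, fell by 3.43 to 3.92 on the log2 scale. Reads of Cyp2c68, Oas1a, H2ac10 and the Serpina1 genes may be split with near-identical copies, so their values are uncertain.

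In absolute level the largest gain was in a ferritin gene. The ferritin light chain gene Ftl1 had 10330, 10697 and 10966 CPM in HDI+YF libraries, against 5187, 5155 and 5357 CPM in YF libraries (1.03 ± 0.08). Clu, a secreted chaperone, averaged 6020 CPM in HDI+YF and 1641 CPM in YF. The ferritin heavy chain gene Fth1 averaged 7129 ± 213 CPM in HDI+YF and 3507 ± 127 CPM in YF (SD, n = 3 each, as in all CPM means given with an error). Both ferritin subunits store iron, and for each the HDI+YF and YF libraries did not overlap. The growth-related Tpt1 averaged 6425 CPM in HDI+YF and 3351 CPM in YF, and the glutathione transferase gene Gstp1 3468 CPM in HDI+YF and 857 CPM in YF. The largest losses were in the neutrophil chemokine gene Cxcl5, with 2076, 1997 and 1729 CPM in HDI+YF, against 4321, 5097 and 4673 CPM in YF (-1.28 ± 0.08), and in the elongation factor gene Eef1a1, which averaged 9539 CPM in HDI+YF and 11421 CPM in YF (-0.26 ± 0.07). Next in order of loss were Tmem176b, with 1392 CPM in HDI+YF and 2558 CPM in YF, Pea15a, with 772 CPM in HDI+YF and 1933 CPM in YF, and the isomerase gene Ppia, with 1547 CPM in HDI+YF and 2689 CPM in YF.

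Among the drug's own targets, Hdac1 rose further and Hdac2 and Hdac8 did not pass the test. Hdac1 had 799, 795 and 798 CPM in HDI+YF libraries, against 419, 382 and 405 CPM in YF libraries, 110.4, 113 and 107 CPM in HDI libraries and 101, 101 and 91.8 CPM in control libraries. The YF libraries thus stand above those without YF, as the overexpression label has it, and HDI+YF stands above all others (log2 fold change over YF 0.99 ± 0.06, adjusted p = 2.01e-12, edgeR). Hdac3 had 141, 143 and 147 CPM in HDI+YF and 115, 109.6 and 115 CPM in YF (0.34 ± 0.05, adjusted p = 3.86e-06). Hdac2 averaged 177 ± 10.4 CPM in HDI+YF and 189 ± 4.74 CPM in YF (-0.09 ± 0.06, adjusted p = 0.14), and without HDI+YF replicate 1 it was called lower (-0.14, adjusted p = 0.0454). Hdac8 averaged 38.7 ± 0.782 CPM in HDI+YF and 42.1 ± 2.02 CPM in YF (-0.12 ± 0.07, adjusted p = 0.113). Without YF the means were 113 CPM in HDI and 105 CPM in control for Hdac3, 149 CPM in HDI and 176 CPM in control for Hdac2, and 16.5 CPM in HDI and 17.9 CPM in control for Hdac8. Reads of a construct with the mouse sequence and of the endogenous gene cannot be told apart in these counts.

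Other deacetylases moved both ways. In class II, whose members act in the nucleus and the cytoplasm, Hdac7 fell to 48.5, 49.9 and 39.9 CPM in HDI+YF, against 100.5, 105 and 104 CPM in YF (-1.16 ± 0.07), and Hdac10 fell by 0.72 on the log2 scale. Hdac5, Hdac6 and the class IV gene Hdac11 rose by 0.38 to 0.68. Of 7 sirtuins, which use NAD in place of zinc, Sirt2 rose most, with 293, 299 and 299.9 CPM in HDI+YF, against 164, 149 and 160.0 CPM in YF (0.92 ± 0.06). Sirt7 and Sirt4 were also called higher and Sirt1 lower (-0.54 ± 0.13), and the lower calls were 2 without control replicate 1 or when only HDI+YF and YF libraries were fitted.

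Subunits of the complexes that carry class I HDACs were mostly lower, 22 of 39 with 6 higher (median log2 fold change -0.25, against -0.00 over all tested genes). Chd3 (chromosome 11, 69343273 to 69369499), a remodelling ATPase of NuRD, had 59.9, 59.3 and 58.02 CPM in HDI+YF libraries, against 381, 376 and 384 CPM in YF libraries (-2.69 ± 0.06, adjusted p = 3.41e-18, edgeR). The next largest change of the list was that of Cdk2ap1. The NuRD genes Cdk2ap1 (-1.59 ± 0.06), Mta3 (-1.19 ± 0.08) and Mbd3 (-0.80 ± 0.07) fell, while the alternative ATPase Chd4 had a value of -0.18 ± 0.07. By complex, the CoREST genes Kdm1a, Rcor2, Rcor3 and Phf21a fell by 0.51 to 0.70 and the corepressor Ncor1 by 0.73 on the log2 scale. The members called higher were of the Sin3 complex, Sap18 (0.82 ± 0.08), Brms1 (0.64 ± 0.06), Sap130, Sin3a and Sap30l, together with Gps2 (0.64 ± 0.06) of the NCoR complex.

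Writers and readers of acetylation fell with few exceptions. Of 24 acetyltransferase and bromodomain genes 20 were lower and 3 higher (median -0.53), and 1 was higher without YF replicate 2. Kat2b, the acetyltransferase PCAF, had 9.25, 9.69 and 8.56 CPM in HDI+YF, against 26.4, 23.2 and 25.5 CPM in YF (-1.45 ± 0.09). Its paralog Kat2a (-0.93 ± 0.06), the coactivators Ep300 (-0.65 ± 0.08) and Crebbp (-0.70 ± 0.16), and the bromodomain genes Brd9 (-1.19 ± 0.08), Brd8 (-0.97 ± 0.07) and Brd1 (-0.95 ± 0.07) fell as well. Brpf1 (0.37 ± 0.06) and Baz2a (0.19 ± 0.07) were higher. The remaining higher member was the only gene of the list raised by at least 2-fold, and it averaged under 1 CPM in YF.

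Replication-dependent histone genes, whose mRNAs normally end in a stem-loop without a poly(A) tail, were called higher in 26 of the 32 members tested and lower in 4, out of 59 in the table. H1f2, a linker histone gene, averaged 77.4 ± 5.32 CPM in HDI+YF and 9.33 ± 1.38 CPM in YF (3.05 ± 0.10), and H2bc4 averaged 148 ± 3.02 CPM and 31.96 ± 0.933 CPM in the same order (2.21 ± 0.11). H1f3 had 5.96, 7.67 and 6.502 CPM in HDI+YF, against 0.474, 0.381 and 0.495 CPM in YF (3.89 ± 0.21), and H1f4 and H3c4 rose on levels below 1 CPM in YF (3.92 against 0.257 CPM and 3.27 against 0.2304 CPM, HDI+YF against YF). Most of this list was near silent: 22 of the 32 tested members averaged under 1 CPM in YF and could pass the count filter through other groups, so the count leans towards higher and lends no support. With a filter of 5 CPM in 3 libraries, which left fewer members tested, 8 were higher and 2 lower. That filter takes any 3 libraries, so members such as H1f3 can pass it without YF and this count can lean the same way. Against this direction H2ac10 fell to 6.29, 5.65 and 4.74 CPM in HDI+YF, against 63.5, 91.4 and 72.4 CPM in YF (-3.77 ± 0.25). These families are near-identical and reads may be split between copies.

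Most histone variants that are made outside S phase differed by less than 2-fold. Among 11 tested, 5 were lower and 1 higher, H2bu2, which averaged under 1 CPM in both groups and was not called with the filter of 5 CPM in 3 libraries. The lower ones included Cenpa, the centromeric histone H3, with 12.96, 8.92 and 9.397 CPM in HDI+YF, against 68.3, 75.8 and 69.1 CPM in YF (-2.77 ± 0.15), and H2ax, H2az1 and Macroh2a1, which fell by 0.97, 0.95 and 0.41 on the log2 scale. The replacement H3.3 genes H3f3a (-0.01 ± 0.06) and H3f3b (0.05 ± 0.06) and the linker variant H1f0 (-0.10 ± 0.06) did not pass the test.

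Genes of cell division fell together, and had the lowest median of the 43 lists. Each of the 58 genes of the Mitosis list passed the test as lower, 56 of them by at least 2-fold, and the median log2 fold change was -2.68, against -0.00 over all tested genes. Ccnb2 (chromosome 9, 70407689 to 70421554), which encodes cyclin B2, an activator of the mitotic kinase CDK1, had 12.01, 9.29 and 8.52 CPM in HDI+YF libraries, against 109, 114 and 109 CPM in YF libraries (-3.48 ± 0.08, adjusted p = 7.76e-18, edgeR). Aspm, a protein of spindle poles, had 4.75, 2.99 and 3.398 CPM in HDI+YF and 40.02, 46.6 and 41.9 CPM in YF (-3.53 ± 0.13). Kif2c, a kinesin that depolymerises microtubules at centromeres, had 4.54, 4.84 and 3.65 CPM in HDI+YF and 41.2, 49.2 and 41.2 CPM in YF (-3.33 ± 0.11). In each of these genes the highest HDI+YF library was far below the lowest YF library. For Ccnb2 and Aspm, which come from the ranking by fold change, non-overlap was a condition of that choice. The kinases Plk1 (-3.26), Aurkb (-2.96) and Cdk1 (-2.57), the transcription factor gene Foxm1 (-2.89) and the proliferation marker Mki67 (-3.08) fell on a similar scale. The smallest changes were in the checkpoint gene Bub3 (-0.49 ± 0.05) and the securin gene Pttg1 (-0.83 ± 0.08). Summed TPM of the list was 552 to 629 in HDI+YF libraries, against 2689 to 2887 in YF libraries. In RNA of whole cultures, fewer dividing cells and less of these mRNAs per cell cannot be told apart.

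Promoters of Aspm and Ccnb2, the 2 Mitosis members with the lowest fold changes, are shown because the list moved as a block. They run from 250 bases before to 50 bases after a start that the RefSeq table gives (GRCm38.p6), 5′ to 3′ on the gene's strand. That start can lie inside the gene's RefSeq span, as it does for Aspm, whose span begins at 139454188. Capitals mark 2 elements known from cell cycle promoters, the cell cycle homology region, searched as TTTGAA or TTCGAA, and the CCAAT box, each on both strands. The regions are chr1:139454523-139454822, plus strand (Aspm) and chr9:70421505-70421804, minus strand (Ccnb2).
Aspm: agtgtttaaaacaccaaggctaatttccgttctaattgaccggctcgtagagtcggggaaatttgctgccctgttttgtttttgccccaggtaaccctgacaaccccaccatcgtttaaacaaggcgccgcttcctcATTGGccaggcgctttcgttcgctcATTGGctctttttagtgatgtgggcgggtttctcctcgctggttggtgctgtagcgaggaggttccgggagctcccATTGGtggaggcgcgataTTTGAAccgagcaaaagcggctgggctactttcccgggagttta
Ccnb2: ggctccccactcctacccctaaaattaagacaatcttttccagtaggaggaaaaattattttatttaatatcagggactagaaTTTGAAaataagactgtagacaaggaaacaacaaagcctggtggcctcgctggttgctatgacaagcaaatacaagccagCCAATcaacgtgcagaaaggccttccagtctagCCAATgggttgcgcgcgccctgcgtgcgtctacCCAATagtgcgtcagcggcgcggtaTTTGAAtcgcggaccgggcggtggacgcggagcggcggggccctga
Of the 49 tested Mitosis genes with a promoter in the table, 79.6% held the cell cycle homology letters in this window and 75.5% a CCAAT box, against 17.0% and 43.8% of the 10651 tested genes with a promoter. The homology letters were in 28.2% of genes lower by 2-fold and in 16.9% of genes higher by 2-fold. The window of Kif2c, a Mitosis gene that the same choice also took, is not shown. It held the homology letters only on the opposite strand, at -103 from the start, and no CCAAT box. A match is a description of letters and not a mapped site.

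Genes of DNA replication were lower too. Of 53 tested, 47 were lower and 5 higher, with a median of -1.27. Clspn, the checkpoint mediator claspin, had 4.25, 3.31 and 2.601 CPM in HDI+YF, against 23.9, 26.8 and 21.3 CPM in YF (-2.82 ± 0.18), and the helicase subunit gene Mcm5 had 14.1, 12.4 and 11.03 CPM in HDI+YF, against 71.7, 84.6 and 75.7 CPM in YF (-2.63 ± 0.12). Rrm2, a subunit of ribonucleotide reductase, fell by 2.44 and the licensing factor gene Cdc6 by 2.32 on the log2 scale. The 5 genes called higher were Orc2, Orc3, Orc4, Gins4 and Rfc1, by 0.22 to 0.34. Other subunits of the origin recognition complex, Orc1 (-1.67 ± 0.15) and Orc6 (-0.79 ± 0.09), fell. Letters of the E2F site (TTTCCCGC, TTTGGCGC, TTTGCCGC or TTTCGCGC) were in 39.5% of the 43 promoters of this list, against 4.54% of all tested genes with a promoter.

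Of 19 cyclins and cell cycle kinases, which drive the phases of the cycle, 15 were lower and 3 higher. Ccna2, cyclin A2 of S phase and G2, had 16.8, 14.98 and 13.2 CPM in HDI+YF, against 127, 153 and 132 CPM in YF (-3.20 ± 0.10), and the growth-factor-responsive cyclin gene Ccnd1 averaged 195 ± 8.503 CPM in HDI+YF and 558 ± 8.601 CPM in YF (-1.52 ± 0.06). The 3 genes called higher were Ccne1 (0.42 ± 0.10), Ccnd2 (0.34 ± 0.09) and Ccnd3 (0.17 ± 0.06). Among 7 tested CDK inhibitors, Cdkn2a, the gene of p16 and p19ARF, had 181, 162 and 192 CPM in HDI+YF, against 62.8, 52.97 and 65.9 CPM in YF (1.56 ± 0.09), and its neighbour Cdkn2b had 101, 96.8 and 99.2 CPM in HDI+YF, against 53.3, 44.7 and 52.3 CPM in YF (0.98 ± 0.07). Cdkn1a, the p53 target p21 that HDAC inhibitors raise in many cell lines, averaged 337 ± 16.9 CPM in HDI+YF and 365 ± 13.9 CPM in YF and did not pass the test (-0.12 ± 0.06, adjusted p = 0.0681, edgeR). Cdkn3, Cdkn2c and Cdkn1b were lower (-1.63, -0.72 and -0.65).

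Of the E2F and pocket protein genes, 11 of 18 were lower and 5 higher. Lin9, a subunit of the DREAM and MuvB complexes, fell to 5.21, 3.92 and 3.65 CPM in HDI+YF, against 23.5, 25.2 and 21.7 CPM in YF (-2.46 ± 0.14), and Mybl2, its partner in S phase, fell by 2.18 on the log2 scale. The pocket proteins diverged: Rb1, the retinoblastoma gene, rose (1.06 ± 0.06), Rbl1 fell (-1.59 ± 0.12) and Rbl2 averaged 36.8 CPM in HDI+YF and 36.7 CPM in YF (0.00 ± 0.07). The count of higher members was 3 without the count filter and without HDI+YF replicate 2, YF replicate 2 or YF replicate 3. In the MYC network, which pairs the activator MYC with MXD repressors over the partner MAX, 6 of 13 genes were higher and 4 lower. Mxd1, a MYC antagonist, had 17.1, 19.5 and 20.9 CPM in HDI+YF, against 6.83, 5.87 and 5.63 CPM in YF (1.65 ± 0.13), Mxi1 rose by 0.95 ± 0.07, and Myc fell to 38.6, 46.7 and 37.1 CPM in HDI+YF, against 55.1, 59.1 and 57 CPM in YF (-0.48 ± 0.08). Without HDI+YF replicate 1, 2 members of this list were lower.

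Targets of p53 showed no common direction, with 10 of 32 higher and 11 lower (median -0.06). Plk3 (1.44 ± 0.15) and Plk2 (1.24 ± 0.08), kinases of the stress response, rose, and the death receptor gene Eda2r (-1.39 ± 0.09) and Pidd1 (-1.08 ± 0.07) fell. Among 16 BCL2 family genes, 8 were lower and 4 higher. The fallen members included both sides of the family: the death activators Bmf, with 48.8, 47.5 and 52.98 CPM in HDI+YF, against 132, 109 and 127 CPM in YF (-1.30 ± 0.09), and Bid (-0.92 ± 0.06), and the survival genes Bcl2l1 (-0.62 ± 0.06) and Bcl2l2 (-0.68 ± 0.10).

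Hepatocyte genes were lower, in a line where the defining hepatocyte product was already near absent. Alb, the albumin gene, averaged 0.1096 CPM in HDI+YF and 0.256 CPM in YF and had too few counts to test. Of 31 tested members of the Hepatocyte identity list, out of 47 in the table, 21 were lower and 2 higher (median -1.02), and summed TPM was 847 to 866 in HDI+YF, against 1503 to 1665 in YF. Of the tested members 10 averaged under 1 CPM in HDI+YF and 5 in YF. Hp, the haemoglobin scavenger haptoglobin, had 0.208, 0.0404 and 0.2097 CPM in HDI+YF, against 5.41, 2.55 and 4.64 CPM in YF (-4.75 ± 0.44). The fibrinogen gene Fga fell by 3.79 on the log2 scale. Among transcription factors of the hepatocyte, Hnf4a averaged 28.7 ± 1.24 CPM in HDI+YF and 121 ± 5.81 CPM in YF (-2.08 ± 0.06, adjusted p = 1.41e-16, edgeR), and Foxa2 (-1.36 ± 0.07) and the bile acid receptor gene Nr1h4 (-1.22 ± 0.08) fell with it. Cebpa (-0.09 ± 0.18), Cebpb (0.06 ± 0.14), Foxa1 (-0.29 ± 0.15) and Foxa3 (0.14 ± 0.15) did not pass the test. The abundant secreted products were lower too, with Apob at 146 ± 5.901 CPM in HDI+YF and 393 ± 5.74 CPM in YF (-1.43 ± 0.07) and the transferrin gene Trf at 373 ± 19.3 CPM and 627 ± 32.04 CPM in the same order (-0.75 ± 0.07). With the filter of 5 CPM in 3 libraries no member was higher.

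Cytochrome P450 genes went both ways, 11 of 26 higher and 11 lower, and 9 of the 26 averaged under 1 CPM in YF. Beside Cyp2c68, the list held rises of Cyp4b1 (1.75 ± 0.22), Cyp4f14 (1.58 ± 0.30) and Cyp2c55 (1.41 ± 0.19), all at low levels. With the filter of 5 CPM in 3 libraries, which tested fewer members, 6 were higher and 4 lower.

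**Figure D3:**
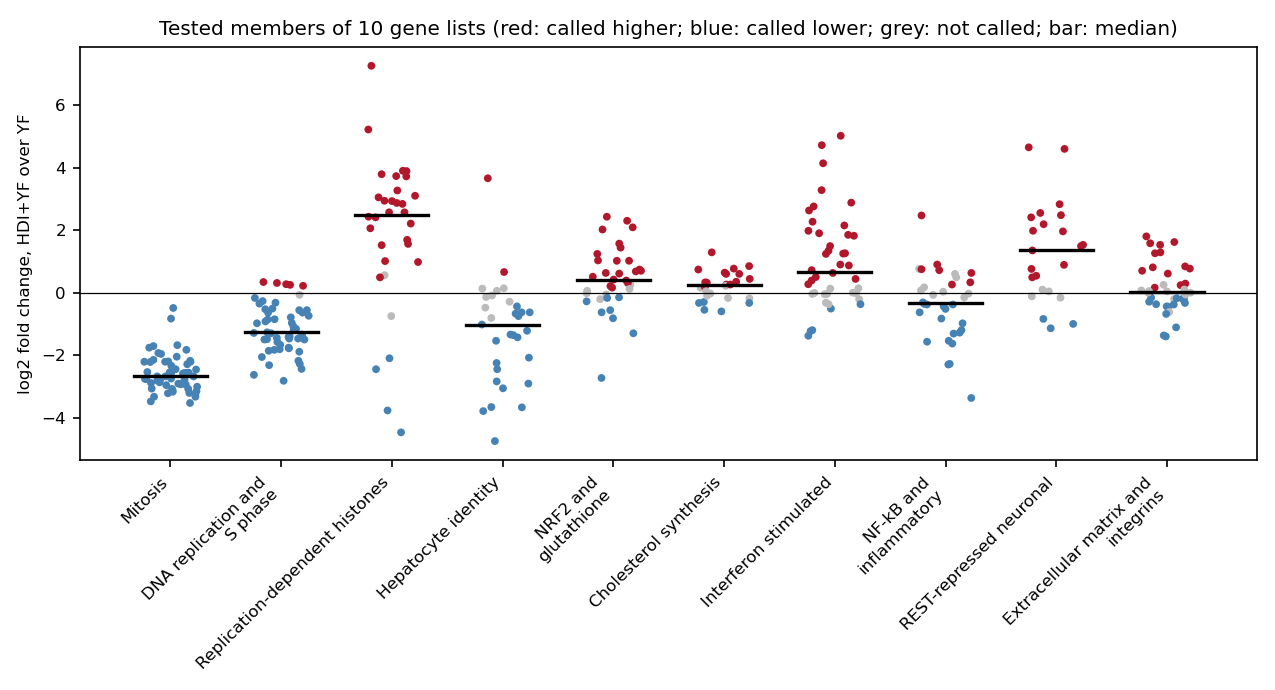
Log2 fold change in HDI+YF over YF of each tested member of 10 gene lists, as points, with the list median as a bar. Points are red where called higher, blue where called lower and grey where not called. The Mitosis members all lie below 0, with a median of -2.68, while members of the interferon, REST and histone lists reach above 4. The histone points above 5 are H1f1 and H2ac6, with 0.0127 and 0 CPM in YF, where the fitted value depends on the prior count.

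In each of 5 lists of lipid and energy genes more members were higher than lower, though only by a small margin in fatty acid synthesis. In cholesterol synthesis 14 of 26 rose and 5 fell (median 0.24). Dhcr7, a late enzyme of the pathway, had 65.03, 72.6 and 72.8 CPM in HDI+YF, against 30.5, 27.7 and 27.8 CPM in YF (1.29 ± 0.07, adjusted p = 7.36e-13, edgeR), and the groups lay apart. Fdft1, which makes squalene (0.74 ± 0.07), Lss, which makes lanosterol (0.77 ± 0.08), and the later enzyme Msmo1 (0.85 ± 0.07) rose by less, and the regulator Srebf2 (-0.33 ± 0.06) was lower. In fatty acid synthesis, 10 of 23 genes were higher and 8 lower (median 0.10). This lay near the shares of all tested genes, 34.7% higher and 35.9% lower, and is not read as a direction of the list. Acss2, which makes acetyl-CoA from acetate, had 77.5, 79.2 and 83.7 CPM in HDI+YF, against 20.7, 18.4 and 20.1 CPM in YF (2.02 ± 0.07), and the desaturase gene Scd1 rose by 1.69 ± 0.09. Fasn, the fatty acid synthase, moved the other way, with 59.2, 67.6 and 69.3 CPM in HDI+YF, against 177, 162 and 166 CPM in YF (-1.36 ± 0.06).

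For fatty acid uptake and oxidation 21 of 35 rose and 6 fell (median 0.37). The mitochondrial trifunctional protein genes Hadha (0.72 ± 0.06) and Hadhb (0.72 ± 0.05), the carnitine carrier Slc25a20 (0.77 ± 0.07) and the lipase gene Pnpla2 (0.67 ± 0.07) were among them. The nuclear receptors parted: Ppara rose (1.29 ± 0.25) and Pparg fell (-1.50 ± 0.23), both at a few CPM. The lower calls were 3 with the filter of 5 CPM in 3 libraries. The list of glycolysis and hypoxia had 23 of 32 members higher and 5 lower (median 0.50), led by the neuronal enolase gene Eno2, with 24.7, 22.9 and 27.2 CPM in HDI+YF, against 6.64, 5.37 and 6.59 CPM in YF (2.01 ± 0.13). Pfkfb4 (1.45 ± 0.10), Aldoc (1.40 ± 0.13) and Adm (1.39 ± 0.23) rose as well, while the liver phosphofructokinase gene Pfkl fell (-0.94 ± 0.11). Respiratory chain subunits were higher in 24 of 42 and lower in 5, by small amounts (median 0.24). Ndufv1, a complex I subunit, had 390.0, 367 and 367 CPM in HDI+YF, against 180.3, 176 and 175 CPM in YF (1.08 ± 0.06). The 5 lower calls were 2 with DESeq2, with RLE scaling or with the filter of 5 CPM in 3 libraries, and 1 to 3 without HDI+YF replicate 2 or 3, YF replicate 2 or 3, or HDI replicate 2.

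Of 35 NRF2 and glutathione genes, 21 were higher and 8 lower (median 0.39). Hmox1, the haem oxygenase that degrades free haem, had 582, 685 and 664 CPM in HDI+YF libraries, against 115, 116 and 127 CPM in YF libraries (2.43 ± 0.08, adjusted p = 7.89e-16, edgeR). Srxn1, which restores oxidised peroxiredoxins, had 269, 242 and 299 CPM in HDI+YF, against 63.1, 65.2 and 61.5 CPM in YF (2.09 ± 0.08), and Prdx1 averaged 3772 ± 172 CPM in HDI+YF and 1269 ± 59.1 CPM in YF (1.57 ± 0.07). The transferases parted, with Gsta2 higher (2.30 ± 0.17) and Gsta1 lower (-2.73 ± 0.30), and these near-identical genes may share reads. Nfe2l2 itself, which encodes NRF2, was lower (-0.15 ± 0.05), as was its inhibitor Keap1 (-0.63 ± 0.07). Among 8 metallothionein and zinc genes, Mt1 (chromosome 8, 94178883 to 94180327) had 2166, 2208 and 2717 CPM in HDI+YF, against 383, 357 and 385 CPM in YF (2.66 ± 0.13), and Mt3 rose by 2.50 ± 0.33. The sensor gene Mtf1 rose by less (0.55 ± 0.09) and the zinc importer gene Slc39a10 fell (-1.14 ± 0.07).

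In the lysosome and autophagy list 30 of 38 rose and 4 fell (median 0.59). The protease gene Ctsl had 1269, 1356 and 1373 CPM in HDI+YF, against 329, 322 and 337 CPM in YF (2.02 ± 0.06). The autophagy adaptor gene Sqstm1 (1.02 ± 0.07) and the autophagosome gene Map1lc3b (1.09 ± 0.06) rose, while Gusb (-1.58 ± 0.09), Atg9b (-1.12 ± 0.08) and the regulator Tfeb (-0.67 ± 0.12) fell. Of 31 proteasome genes 19 were higher and 4 lower, with small changes (median 0.16) led by Psmd4 (0.78 ± 0.06). The lower count was 7 without HDI+YF replicate 1 and 2 without YF replicate 2. Of 44 cytosolic ribosomal protein genes, 14 were higher and 29 were not called (median 0.08), and the count of lower members, 1 here, lay between 0 and 8 over the alternatives.

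Stress pathways of protein and amino acid supply did not rise as lists. Integrated stress response genes were lower in 19 of 33 and higher in 4 (median -0.33). Ddit3, the stress transcription factor CHOP, was an exception, with 169, 164 and 174 CPM in HDI+YF, against 51, 54.9 and 54.98 CPM in YF (1.65 ± 0.06, adjusted p = 1.99e-15, edgeR), and Aldh1l2 rose by 1.46 ± 0.12. Atf4, the central factor of the response, was lower (-0.40 ± 0.07), as were Atf5 (-1.45 ± 0.11), Stc2 (-2.10 ± 0.15) and the serine synthesis genes Phgdh (-1.13 ± 0.07), Psat1 (-0.84 ± 0.10) and Psph (-0.71 ± 0.08). Chaperone and unfolded protein genes were lower in 15 of 29 and higher in 9. Hsp90aa1, the inducible HSP90, had 1389, 1611 and 1432 CPM in HDI+YF, against 540.3, 624 and 564 CPM in YF (1.36 ± 0.07), and Xbp1, a factor of the unfolded protein response, fell to 108, 110.0 and 98.8 CPM in HDI+YF, against 206, 219.8 and 207 CPM in YF.

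The interferon stimulated list had 26 of 42 members higher and 5 lower (median 0.68), and 18 rose by at least 2-fold. These genes normally answer to type I interferon. In YF 6 of the 42 averaged under 1 CPM and could pass the count filter through other groups, so the count leans towards higher. Isg15, a ubiquitin-like protein, had 29.01, 26.7 and 30.7 CPM in HDI+YF, against 3.99, 3.89 and 3.88 CPM in YF (2.88 ± 0.11, adjusted p = 4.78e-15, edgeR). The sensors of double-stranded RNA that make oligoadenylate, Oas1a (3.28 ± 0.15) and Oas2 (4.14 ± 0.34), rose, Oas2 with 2.33, 2.75 and 3.31 CPM in HDI+YF libraries, against 0.158, 0.191 and 0.114 CPM in YF libraries. The interferon response factors Irf9 (0.50 ± 0.08) and Stat2 (0.27 ± 0.06) rose too. The 5 lower members were Irf1 (-0.51), Rtp4 (-0.37), Parp9 (-1.38), Parp14 (-1.23) and Dtx3l (-1.20), and the receptor genes Ifih1 (-0.04 ± 0.15) and Ddx58 (-0.04 ± 0.08) did not pass the test. Of 13 leukocyte markers measured 6 were tested, Cd68, Csf1r, Itgam and Lyz2 higher and Cd14 lower, with summed TPM of 62.1 to 71.1 in HDI+YF and 89.2 to 113 in YF. The T cell marker Cd3e was at 0 in all 6 libraries and Ptprc, the pan-leukocyte gene CD45, averaged 0.679 CPM in HDI+YF and 1.16 CPM in YF and did not pass the test. The higher count of these markers was 2 without HDI+YF replicate 2, YF replicate 2 or YF replicate 3 and 1 with the filter of 5 CPM in 3 libraries, and the lower count was 2 without HDI+YF replicate 3. The part of other cell types in the interferon result was not tested.

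Promoters of Rsad2 and Oas1g are shown because these genes had the highest fold changes of the interferon list and hold the element through which its genes are classically induced. Oas1g averaged 1.49 CPM in HDI+YF and 0.0527 CPM in YF (4.72 ± 0.57), and both promoters were picked after the values were seen. Capitals mark the letters of the interferon-stimulated response element, read as GAAA, any 2 bases and GAAA on either strand, within the same 300 bases (RefSeq, GRCm38.p6), at chr12:26456403-26456702, minus strand (Rsad2) and chr5:120887564-120887863, minus strand (Oas1g).
Rsad2: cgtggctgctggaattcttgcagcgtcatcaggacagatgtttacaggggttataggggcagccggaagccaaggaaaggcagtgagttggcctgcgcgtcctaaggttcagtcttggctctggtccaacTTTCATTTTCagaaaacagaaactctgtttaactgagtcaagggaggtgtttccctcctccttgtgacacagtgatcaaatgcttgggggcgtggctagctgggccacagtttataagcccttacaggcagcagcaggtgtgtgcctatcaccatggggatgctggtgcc
Oas1g: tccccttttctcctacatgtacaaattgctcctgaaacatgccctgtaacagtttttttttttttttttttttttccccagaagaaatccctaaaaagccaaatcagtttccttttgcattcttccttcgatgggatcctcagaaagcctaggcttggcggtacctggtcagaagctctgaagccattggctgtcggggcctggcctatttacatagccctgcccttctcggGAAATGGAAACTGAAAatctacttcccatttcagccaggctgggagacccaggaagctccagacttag
These letters were in 63.6% of the 33 tested interferon genes with a promoter, against 3.68% of all tested genes with one. They were also in the promoters of Ifih1 and Ddx58, which did not pass the test.

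In antigen presentation 10 of 18 rose and 3 fell. The class I heavy chain genes H2-K1 (1.20 ± 0.08) and H2-D1 (1.22 ± 0.06) and their activator Nlrc5 (1.61 ± 0.16) rose. Of the immunoproteasome subunits, Psmb9 rose (1.46 ± 0.19) while Psmb10 fell to 4.04, 4.52 and 3.57 CPM in HDI+YF, against 25.8, 24.96 and 27.2 CPM in YF (-2.68 ± 0.10), and the trimming peptidase gene Erap1 fell by 2.39 on the log2 scale. NF-kB and inflammatory genes were lower in 18 of 34 and higher in 7 (median -0.34). Vcam1, an adhesion molecule that binds leukocytes, had 20.6, 17.5 and 20.01 CPM in HDI+YF, against 94.1, 93.98 and 97.4 CPM in YF (-2.30 ± 0.08), and the chemokine gene Ccl9 had 5.29, 4.44 and 3.901 CPM in HDI+YF, against 47.1, 49.9 and 44.2 CPM in YF (-3.37 ± 0.11). The subunit gene Nfkb1 (-1.63 ± 0.07) and the feedback inhibitor Tnfaip3 (-1.20 ± 0.07) fell. Cxcl10, a chemokine that interferon also induces, went against the list, with 31.3, 26.6 and 32.9 CPM in HDI+YF, against 5.69, 5.56 and 5.18 CPM in YF (2.47 ± 0.14).

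Immediate early genes, the first answer to growth signals and stress, were higher in 15 of 30 and lower in 6 (median 0.29). Fos had 135, 123 and 132 CPM in HDI+YF, against 52.5, 42.3 and 48.6 CPM in YF (1.44 ± 0.08), Egr1 had 80.8, 71.2 and 97.3 CPM in HDI+YF, against 23.1, 12.8 and 17.9 CPM in YF (2.21 ± 0.25), and Dusp1, a phosphatase that turns off MAP kinases, had 31.4, 30.5 and 32.2 CPM in HDI+YF, against 10.4, 9.79 and 9.94 CPM in YF (1.64 ± 0.12). The groups did not overlap in any of the 3. The AP-1 partners did not follow Fos: Jun (-0.44 ± 0.07), Junb (-0.21 ± 0.07) and Fosl1 (-1.09 ± 0.12) were lower.

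Neuronal genes held silent by the repressor REST elsewhere in the body were called higher in 16 and lower in 3 of the 23 tested members, out of 42 in the table. Vgf, a neuropeptide precursor gene, had 93.8, 112 and 115 CPM in HDI+YF, against 16.1, 14.9 and 14.3 CPM in YF (2.83 ± 0.09, adjusted p = 1.98e-16, edgeR), and the synaptic vesicle gene Syp averaged 33.2 ± 2.24 CPM in HDI+YF and 8.53 ± 1.22 CPM in YF (1.96 ± 0.11). Map1a (2.19 ± 0.13) and Celsr3 (2.48 ± 0.30) rose at low levels. Rest was itself lower, at 6.46 ± 0.212 CPM in HDI+YF and 11.6 ± 1.62 CPM in YF (-0.84 ± 0.20). Of the tested members 8 averaged under 1 CPM in YF and could pass the filter through other groups, so the count leans towards higher. With the filter of 5 CPM in 3 libraries, which tested fewer members, 10 were higher. That filter too can be passed through other groups, so this count can lean the same way.

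Matrix and adhesion genes showed no common direction, with 14 of 38 higher and 14 lower (median 0.02). Ccn2, a connective tissue growth factor, had 570.5, 747 and 574 CPM in HDI+YF, against 202, 204 and 209.5 CPM in YF (1.62 ± 0.10). Thbs1 also rose (1.53 ± 0.14), while the integrin genes Itgb6 (-1.37 ± 0.11) and Itgb4 (-1.11 ± 0.11) fell. Of 12 stellate cell and fibroblast markers 4 were tested and Des, Col1a1 and Pdgfra were higher, with summed TPM of 12.5 to 14.6 in HDI+YF and 5.16 to 7.9 in YF, and Lrat, which marks quiescent stellate cells, was at 0 in the 6 libraries. Their part in the matrix result was not tested. Of 11 endothelial markers 2 were tested, Vwf higher and Eng lower (neither called with the filter of 5 CPM in 3 libraries), with summed TPM of 0.86 to 1.05 in HDI+YF and 1.54 to 2.16 in YF.

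Epithelial junction and keratin genes were lower in 12 of 21 and higher in 5 (median -0.61). Cldn2, a pore-forming claudin, had 92.1, 88.1 and 82.1 CPM in HDI+YF, against 388, 350.3 and 382 CPM in YF (-2.10 ± 0.06), and Cdh1, E-cadherin, had 44.4, 43.3 and 43.96 CPM in HDI+YF, against 102, 89.4 and 95.4 CPM in YF (-1.12 ± 0.08). Krt19, a keratin of bile duct and progenitor cells, fell to 114, 101 and 106 CPM in HDI+YF, against 311, 264 and 277 CPM in YF (-1.41 ± 0.09), whereas Krt20 rose (1.06 ± 0.06). The higher calls of the list were 3 with the filter of 5 CPM in 3 libraries. Of 9 cholangiocyte and progenitor markers measured 8 were tested, 5 of them lower and none higher, and their summed TPM was 4022 to 4606 in HDI+YF and 5338 to 5759 in YF. Mesenchymal genes were lower in 7 of 14 and higher in 4. The membrane protease gene Mmp14 had 13.9, 12.4 and 9.52 CPM in HDI+YF, against 75.5, 72.03 and 75.9 CPM in YF (-2.64 ± 0.09), the tropomyosin gene Tpm1 fell (-1.22 ± 0.06), and the repressor gene Snai1 rose (1.01 ± 0.12). In the Hedgehog pathway, with 4 of 8 genes higher and 3 lower, the receptor genes Smo (-1.80 ± 0.06) and Ptch1 (-0.50 ± 0.07) fell and the effector gene Gli1 had 16.1, 17.2 and 17.1 CPM in HDI+YF, against 7.31, 5.07 and 4.91 CPM in YF (1.54 ± 0.13).

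Most of what FK228 changed in YF cells it also changed without YF. HDI versus control shares no library with HDI+YF versus YF, and it called 9181 genes (68.8%), 4437 of them higher (33.2%) and 4744 lower (35.5%). Among the 4635 that rose with YF, 3449 rose without it too, 74.4% of one list and 77.7% of the other, and 143 were lower there. Among the 4791 that fell with YF, 3832 fell without it too, 80.0% of one list and 80.8% of the other, and 123 were higher there. Over 11965 tested genes with a mean of 1 CPM or more, fold changes with and without YF had r = 0.845, given as a description across genes, and the median absolute log2 fold change was 0.413 with YF and 0.367 without.

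The effects themselves differed for 3531 genes (26.5%), by the test of the FK228 effect with YF minus that without. The difference was positive for 1484 (11.1%) and negative for 2047 (15.3%). Among genes raised in both settings and passing this test, the rise was smaller with YF for 501 and larger for 406. Among genes lowered in both, the fall was larger with YF for 734 and smaller for 167.

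**Figure D4:**
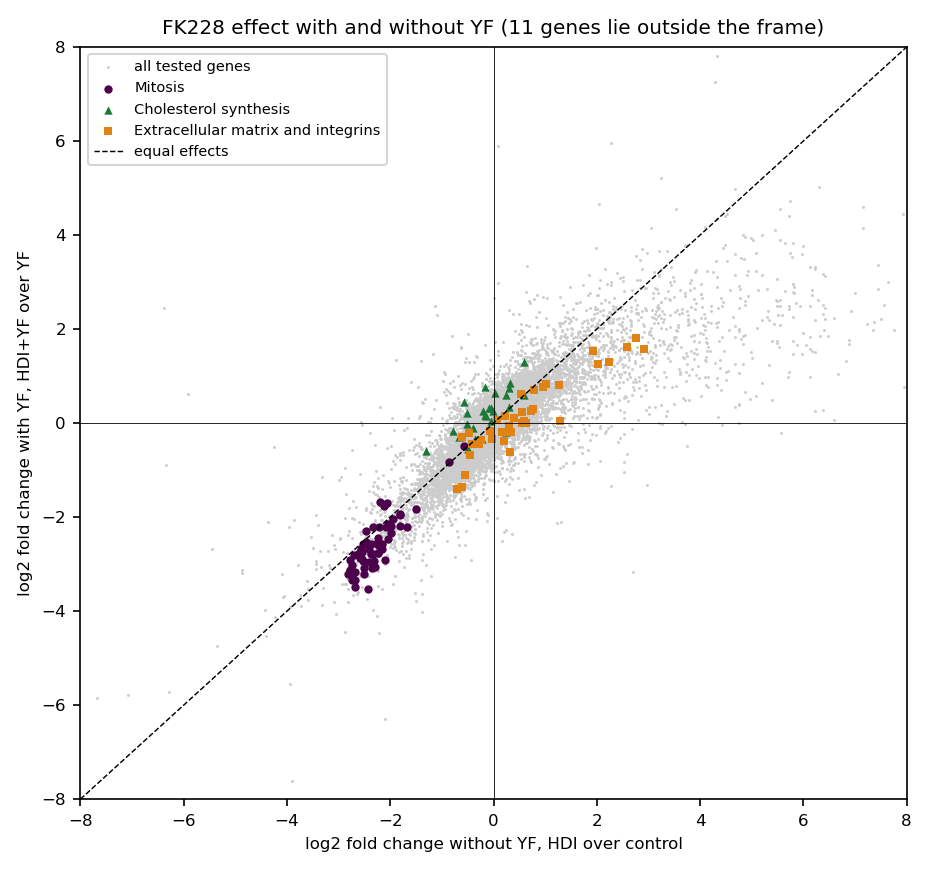
Log2 fold change with FK228 in YF cells (HDI+YF over YF, vertical axis) against that without YF (HDI over control, horizontal axis) for all tested genes as grey points, with 3 gene lists in colour and a dashed line of equal effects. 11 genes lie outside the frame of 8 log2 units. Mitosis genes lie mostly on or below the line, cholesterol synthesis genes mostly above it and matrix genes mostly below it.

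Part of the cell division genes fell further with YF. In the Mitosis list 25 of 58 differences were negative and 3 positive, beside medians of -2.68 with YF and -2.33 without. Aspm had a difference of -1.10 ± 0.19 (adjusted p = 0.00026, edgeR), from a log2 fold change of -3.53 with YF and -2.43 without, and for Ccnb2 it was -0.79 ± 0.12. In the replication list 12 of 53 differences were positive and 1 negative, that of Rrm2 (-0.61 ± 0.16), and the medians were -1.27 with YF and -1.28 without.

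Cholesterol synthesis genes stood higher under FK228 when YF was present. Differences were positive in 15 of 26 and negative in none, and the list had 14 higher and 5 lower with YF, against 6 higher and 12 lower without. Mvk, mevalonate kinase, had a log2 fold change of 0.44 with YF and -0.58 without (difference 1.02 ± 0.15), Lss 0.77 and -0.16 (0.92 ± 0.12), and Idi1 0.22 and -0.52 (0.75 ± 0.19). Lss had 36.4, 36.8 and 40.3 CPM in HDI+YF, 22.2, 22.9 and 21.6 CPM in YF, 21.3, 19.7 and 21.8 CPM in HDI and 24.7, 20.1 and 25.2 CPM in control. Its HDI+YF libraries were above all others, and its control libraries spanned the range of the other 2 groups but for the lowest HDI library. Lss was not called without YF (adjusted p = 0.11, edgeR), unlike the 12 members lower there, and does not stand for the list. Summed TPM of the list averaged 626 in HDI+YF, 604 in YF, 514 in HDI and 618 in control.

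Matrix and inflammatory genes showed the reverse. Among matrix and integrin genes 20 of 38 differences were negative and none positive, and medians were 0.02 with YF and 0.37 without. Fn1, fibronectin, had a log2 fold change of 0.05 with YF, which did not pass the test (adjusted p = 0.623, edgeR), and 1.28 without (difference -1.24 ± 0.11). Of 34 NF-kB and inflammatory genes 17 differences were negative and 1 positive. Ptgs2, the inducible cyclooxygenase, had 0.72 with YF and 1.93 without (-1.21 ± 0.11), and Cxcl5 had -1.28 and -0.18 (-1.10 ± 0.11). Targets of p53 also leaned down, with 14 of 32 negative and 3 positive.

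Of the 4 class I HDAC genes, Hdac1 and Hdac3 had a positive difference that passed the test, and Hdac2 (0.14 ± 0.08) and Hdac8 (-0.00 ± 0.10) did not pass it. Reads of a construct with the mouse sequence would be counted too, so these differences need not be those of the endogenous genes. The difference was 0.82 ± 0.08 for Hdac1 and 0.24 ± 0.07 for Hdac3, and the Hdac3 call was lost without the count filter or without HDI+YF replicate 3 (difference then 0.22 in each, adjusted p = 0.0615 and 0.0513, edgeR). In the MYC network 5 of 13 differences were positive and 1 negative. Mxd1 was highest by difference among genes with a mean of 5 CPM or more over the 12 libraries, at 1.82 ± 0.20 (adjusted p = 1.13e-06), with 17.1, 19.5 and 20.9 CPM in HDI+YF, 6.83, 5.87 and 5.63 CPM in YF, 5.75, 6.23 and 7.36 CPM in HDI and 5.65, 7.86 and 8.24 CPM in control. Only the HDI+YF libraries stood apart, and Myc, its opponent, fell with YF and rose without (-0.48 and 0.24, difference -0.72 ± 0.11).

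The retrotransposon-derived imprinted gene Peg10 rose in both settings (2.33 with YF and 0.50 without), with 21.01, 23.9 and 26.5 CPM in HDI+YF, 4.78, 4.27 and 5.18 CPM in YF, 5.06, 6.71 and 6.78 CPM in HDI and 3.37, 4.82 and 4.898 CPM in control (1.82 ± 0.21). Mt1 and Mt2 rose in both settings and more with YF (differences 1.62 ± 0.18 and 1.29 ± 0.19). Efnb2, an ephrin ligand, Zfp36, which destabilises AU-rich mRNAs, Rabl2 and Mlf1 rose with YF and fell without. For Efnb2 these were 0.60 and -0.93, with 27.5, 30.4 and 29.5 CPM in HDI+YF, 18.96, 18.8 and 19.9 CPM in YF, 9.14, 8.25 and 8.101 CPM in HDI and 14.7, 16.9 and 16.99 CPM in control.

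Among genes with a mean of 5 CPM or more over the 12 libraries, the 8 lowest differences belonged to genes that rose with FK228 in both settings and averaged under 1 CPM in control. The alpha globin gene Hba-a1 had 138, 104 and 136 CPM in HDI+YF, 25.7, 14.5 and 21.6 CPM in YF, 40.8, 33.1 and 28.8 CPM in HDI and 0.0515 CPM on average in control. It was highest in HDI+YF, so its negative difference (-6.63 ± 0.80) rests on the control level of 4 counts over 3 libraries, where the HDI to control ratio of counts was 664 (95% exact interval 259 to 2439, counting error only). Of 10 erythroid markers measured 3 were tested, Hba-a1 and Hba-a2 higher and Klf1 not called. Alas2 averaged 0 CPM in HDI+YF and 0.0908 CPM in YF, and reads of Hba-a1 may be split with Hba-a2. The higher count of these markers was 1 with DESeq2 or with the filter of 5 CPM in 3 libraries, and the lower count was 1 without the count filter or without HDI+YF replicate 1. Cd36 had 17.3 CPM in HDI+YF, 2.02 in YF, 14.5 in HDI and 0.0516 in control (-4.90 ± 0.42, again on 4 control counts). Gli1 (-4.63 ± 0.31), Ndrg2 (-3.47 ± 0.30), Serpinb1a (-3.45 ± 0.26), the neurexin-family gene Cntnap2 (-3.32 ± 0.50), the interferon-induced Apol9a (-3.29 ± 0.39) and the complement protease gene C1s1 (-3.28 ± 0.27) made up the rest, all below 1 CPM in control.

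**Figure D5:**
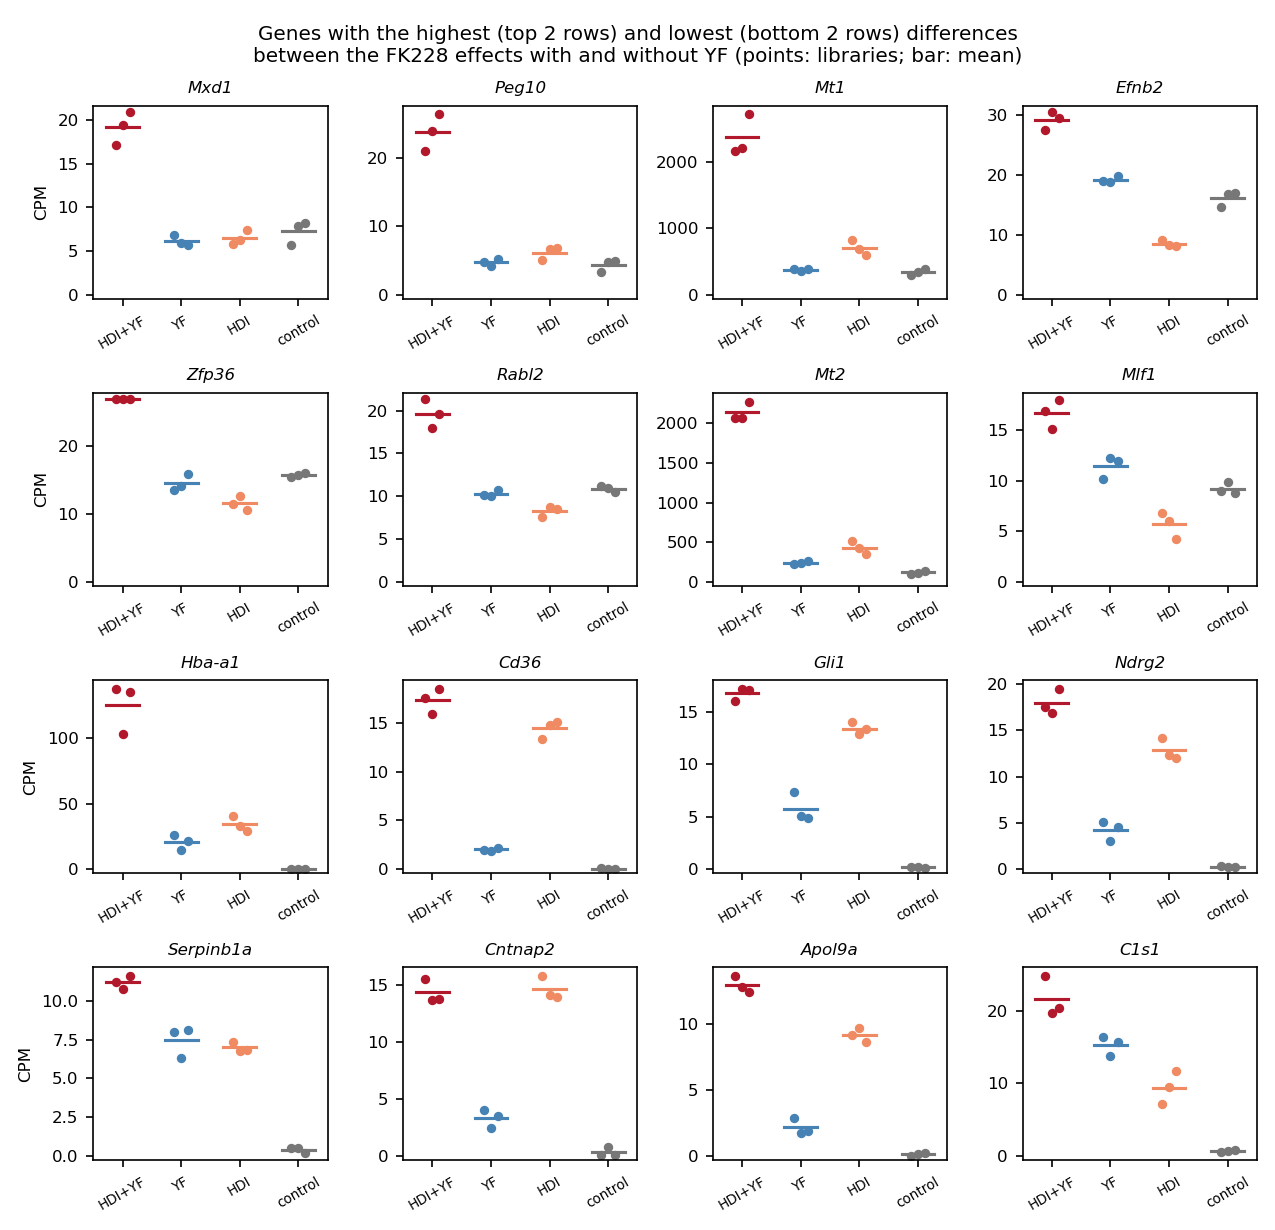
Level in CPM (linear axes from 0) of the 8 genes with the highest and the 8 with the lowest difference between FK228 effects. They were taken among genes with a mean of 5 CPM or more and without a Gm number, Rik, LOC or accession-like symbol. Libraries are points and the mean of 3 is a bar, in the order HDI+YF, YF, HDI and control. In the upper 2 rows HDI+YF stands above the other groups, and in the lower 2 rows control lies below 1 CPM for every gene while HDI+YF is level with or above HDI.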

How the data were processed

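RNA extracted with TRIzol was sequenced on a BGISEQ platform with paired-end reads of 100 bases, per the labels' protocols. Per the submitters' processing notes the build was GRCm38.p6, and tools listed there without a role were RSEM 1.2.12, Bowtie2 2.2.5, HISAT2 2.0.4 and DESeq2 1.4.5. The authors deposited estimated counts and TPM per gene and library, per the file headers; 16.6% of the count values were not whole, and all were rounded. Of the table's per-sample columns 24 were not used, nor were 16 columns of averages. Coordinates are from RefSeq (GRCm38.p6), which matched 18980 of 19037 genes by identifier.

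Counts of the 12 libraries (23664436 to 26122987 each), in 4 groups of 3 taken from the titles, were fitted together in edgeR 4.0.16 (R 4.3.3, limma 3.58.1) with TMM scaling, the default expression filter and robust quasi-likelihood tests, adjusted by Benjamini and Hochberg over 13346 genes and called at 0.05. Contrasts were HDI+YF versus YF, HDI versus control, and the difference between them. CPM values carry the TMM factors. On simulated data for HDI+YF versus YF (13346 genes), 67, 67 and 66 genes were changed by log2 0.5, 1 and 2. The fit called 68.7%, 92.5% and 92.4% of them in that order, with 10 false among 179 calls. Far fewer genes were changed there than the 9426 called in the data, so these rates need not hold for this comparison. No pair of replicate libraries agreed within sampling noise.

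Alternatives were DESeq2 1.42.0, RLE scaling, a stricter filter (5 CPM in 3 libraries) or none, the compared groups only, a replicate block, and leaving out each library. Genes given per library follow a rule: the 12 highest and 12 lowest fold changes with at least 5 CPM and no overlap, up to 4 called members of each of 43 lists by absolute fold change with at least 1 CPM, the class I HDAC genes, the 8 highest and 8 lowest differences with at least 5 CPM, and the 5 largest gains and losses of CPM. The rankings of 12 and of 8 skipped genes with a Gm number, Rik, LOC or accession-like symbol. Other list members, given by fold change or mean, were named after their values were seen. The comparison, lists and tests were chosen with earlier results of these data known. Intervals cover counting error only. Results for some genes of the lists are not reported here, though the genes are in the counts.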

Additional observations from a re-analysis of the deposited data

Results flagged for a closer look

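The FK228 effect with YF differed from that without YF by the test of the difference itself (edgeR, adjusted p under 0.05, n = 3 libraries in each of the 4 groups) in the 18 genes given here, Hdac1, Hdac3 and the 8 highest and 8 lowest differences among genes with a mean of 5 CPM or more. Other genes named in the report also passed this test. A positive difference stands for a higher fold change with YF. It was 0.82 for Hdac1 (adjusted p = 4.45e-07, edgeR), whose fold change was 0.99 with YF and 0.17 without, and 0.24 for Hdac3. For these HDAC genes, reads of a construct with the mouse sequence and of the endogenous gene cannot be told apart. Mxd1 and Peg10 each had a difference of 1.82, Mt1 of 1.62, Efnb2 of 1.53, Zfp36 of 1.33, Rabl2 of 1.32, Mt2 of 1.29 and Mlf1 of 1.23. Among these, Efnb2, Zfp36, Rabl2 and Mlf1 were called in opposite directions in the 2 settings.

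On the negative side the difference was -6.63 for Hba-a1, -4.90 for Cd36, -4.63 for Gli1, -3.47 for Ndrg2, -3.45 for Serpinb1a, -3.32 for Cntnap2, -3.29 for Apol9a and -3.28 for C1s1. All 8 rose with FK228 in both settings, and their mean levels were 20.6 CPM (Hba-a1), 2.02 CPM (Cd36), 5.76 CPM (Gli1), 4.25 CPM (Ndrg2), 7.498 CPM (Serpinb1a), 3.34 CPM (Cntnap2), 2.21 CPM (Apol9a) and 15.3 CPM (C1s1) in YF, and at most 0.684 CPM (C1s1) in control. The YF libraries of each thus started above the control libraries. For Hba-a1 and Cd36, with 4 counts in all in control, the fitted difference depends on the prior count.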

How the results depend on the processing

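Of 160 values of the main counts over alternatives, 159 lay within 1.5 times the count reported. The exception was the number of genes higher by 2-fold, which was 592 with the filter of 5 CPM in 3 libraries, where 10771 genes were tested, against 1267. Leaving out 1 library at a time gave 4333 to 4748 genes higher and 4491 to 4885 lower in HDI+YF versus YF, 1188 to 1304 and 1282 to 1374 at 2-fold, and 1138 to 1582 positive and 1674 to 2135 negative differences. Same-numbered HDI+YF and YF libraries deviated together with r of 0.005, 0.107 and 0.069. For differently numbered ones r lay between -0.122 and 0.081. The numbers were not taken to pair the libraries. Deviations were more alike or opposed between some control and YF libraries, with r of 0.415 for control 1 and YF 2. For control 2 and YF 2 r was -0.43, and the cause was not tested. With a replicate block 4570 genes were higher and 4722 lower. RLE scaling moved the median of all genes to 0.031, and 51.8% of its calls were higher, against 49.2%. Named genes kept direction and call in 3433 of 3454 fits of HDI+YF versus YF and in 333 of 340 fits of the difference. The calls lost in some fits included those of Hspa1a, Rpl38, Lyz2 and, for the difference, Hdac3. The difference for Hdac8, -0.00 and not called, lay between -0.07 and 0.04 when 1 library was left out. It turned positive without HDI+YF replicate 2 (0.01), YF replicate 3 (0.04), HDI replicate 2 (0.03), HDI replicate 3 (0.03) or control replicate 3 (0.02), never called, and the cause was not tested. List counts lay within 1.5 times in 1499 of 1548 values, and those that did not stand beside the lists. Members averaging under 1 CPM in YF, where depth limits the values, were 22 of 32 replication-dependent histone, 9 of 26 cytochrome P450, 8 of 23 neuronal and 6 of 42 interferon genes tested.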
